A study of Mus musculus with 16 samples.

Results

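Interferon-inducible GTPases are GTP-binding proteins that cells make in response to interferons. The 10 genes described here were taken by name: 6 guanylate-binding proteins (Gbp2, Gbp3, Gbp4, Gbp5, Gbp6 and Gbp7) and 4 immunity-related GTPases (Iigp1, Igtp, Irgm1 and Ifi47), out of 24496 gene symbols. Guanylate-binding proteins assemble on the membranes of microbe-containing vacuoles and on cytosolic bacteria, where they open the vacuole and help caspases of the inflammasome reach bacterial lipopolysaccharide. Immunity-related GTPases act on the same vacuoles: effector proteins such as Iigp1 and Ifi47 load onto the vacuole membrane and break it, while the regulators Irgm1 and Igtp sit on host membranes and hold the effectors in their inactive form. Interferon-gamma, made mainly by T cells and NK cells, induces both families, and type I interferons induce many of the same genes.

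The study profiled single cells from MC38 colon tumors and from spleens of mice with and without the gene Aire, which lets thymic epithelium display tissue antigens to developing T cells. There are 16 libraries, 1 for each genotype, treatment, tissue and sort. All mice were littermates bought at 8 weeks of age, on a C57BL/6 background, and all carried MC38 tumors. The groups are Aire+/+ mice (WT) given isotype control antibody, WT mice given anti-PD1, Aire-/- mice (KO, a germline deletion) given isotype control, and KO mice given anti-PD1, with 5 antibody doses of 5 mg/kg (day 0, day 3, day 7, day 10, day 14) and harvest on day 19. From each group CD45+ cells and, separately, CD8+ cells were sorted from tumor and from spleen. Tumors of 4 to 6 mice, and spleens, were pooled before sorting, so each value below belongs to a pool and no difference between groups has a replicate check. Intervals given in brackets are 95% intervals of the UMI counts (UMI, unique molecular identifier, 1 for each captured RNA molecule) or, for shares of cells, of the number of cells. They do not cover differences between mice.

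Cells were assigned to 5 types by UMIs of a few marker genes in the single cell, and 85.0% of the 37453 cells kept met 1 gate. In the order WT isotype, WT anti-PD1, KO isotype, KO anti-PD1, which is used for every run of 4 values below, the tumor CD45+ libraries gave 1018, 666, 485 and 181 macrophages, 664, 445, 429 and 337 monocytes, 118, 198, 195 and 677 CD8 T cells and 104, 129, 154 and 265 NK cells. The splenic CD45+ libraries gave 133, 101, 85 and 55 monocytes, 129, 141, 143 and 172 CD8 T cells, 84, 49, 59 and 54 NK cells and 1384, 1436, 1332 and 1698 B cells, while splenic macrophages (8, 4, 3 and 3) and tumor B cells (5, 5, 2 and 5) were too few to describe. The CD8+ sorts held 2472, 2099, 1756 and 2116 CD8 T cells in tumor and 2717, 2765, 2219 and 2456 in spleen. Markers that the gates did not use were present in the cells gated: 5 of 5 macrophage markers in the tumor macrophages, with summed levels of 6136, 7480.2, 5159 and 4057 UMIs per 1000000 UMIs of that cell type (Apoe the most abundant), 5 of 5 NK markers in the tumor NK cells (2472, 2121, 2377 and 2577), 5 of 5 monocyte markers in the tumor monocytes (7236, 7832, 8486 and 8749, Plac8 the most abundant), 5 of 5 T-cell markers in the tumor CD8 T cells of the CD8+ sort (3184, 3373, 3243 and 3081, Thy1) and 5 of 5 B-cell markers in the splenic B cells (2065, 2127, 2139 and 2182, Ms4a1). All levels below are on this scale, written CPM. Each UMI counts 1 molecule from 1 end of its RNA, so levels are not divided by gene length. The sample records name a kit for the 3′ end, and the methods also name one for the 5′ end in the passage on T-cell receptor libraries, so which end was read is not certain. Any 2 libraries shared at most 18 cell barcodes.

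In tumor macrophages every one of the 10 genes stood higher in KO than in WT mice, under either antibody. Under anti-PD1, 8 of 10 members were higher by at least 1.5-fold (6.87% of 8633 genes tested were that much higher), and under isotype 10 of 10 were (4.76% of 9628 genes tested). The median log2 ratio of KO over WT was 1.03 against -0.11 for all genes under anti-PD1 and 0.91 against -0.04 under isotype. Summed over the 10 genes, levels were 1129, 1122, 2329.6 and 2659 CPM, so that both KO pools lay above both WT pools, by 2.37-fold (2.30 to 2.45) under anti-PD1 and 2.06-fold (2.02 to 2.11) under isotype.

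Of the guanylate-binding proteins, Gbp2, which targets vacuoles of intracellular parasites and bacteria, was the most abundant in macrophages and moved the most there, with 263, 269, 701 and 918 CPM. Its log2 ratio of KO over WT was 1.77 (1.69 to 1.86) under anti-PD1 and 1.42 (1.36 to 1.48) under isotype. Gbp4 stood at 59.1, 51.1, 129.9 and 162 CPM, with ratios of 1.67 (1.46 to 1.86) and 1.14 (1.005 to 1.27). For both genes the 2 WT pools are close to each other and the KO anti-PD1 pool is the highest of the 4. Gbp5, which promotes assembly of the NLRP3 inflammasome, was the least abundant of the 10 in macrophages at 33.5, 30.2, 70.3 and 73.9 CPM and differed by 1.29 (1.002 to 1.57) and 1.07 (0.89 to 1.25). Gbp3 had 77.9, 84.8, 151 and 171 CPM (ratios 1.01 and 0.96), and Gbp7, which supports the oxidative killing machinery of phagocytes, 89.5, 92.1, 156 and 167 CPM (ratios 0.86 and 0.80). The smallest difference of the group was in Gbp6 under anti-PD1, 0.58 (0.32 to 0.83), which falls just short of 1.5-fold, from levels of 47.3, 52.6, 81.2 and 78.5 CPM.

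The 2 regulators among the immunity-related GTPases were higher in KO macrophages as well, Igtp by more than Irgm1 under anti-PD1. Igtp had 110.1, 99.1, 200.1 and 205 CPM and log2 ratios of 1.05 (0.88 to 1.21) and 0.86 (0.76 to 0.96). Irgm1, which also takes part in autophagy, had 146, 150.4, 241 and 216 CPM and ratios of 0.53 (0.37 to 0.68) and 0.73 (0.64 to 0.82), so under anti-PD1 it was the other member below 1.5-fold. Of the effectors, Iigp1 stood at 73.5, 78.5, 181 and 237 CPM, 3.02-fold (2.69 to 3.38) higher in KO under anti-PD1 and 2.47-fold (2.28 to 2.67) under isotype. Ifi47, the second most abundant member after Gbp2 in the KO macrophages, stood at 229, 214, 417 and 429.7 CPM, with 2.01-fold (1.85 to 2.17) and 1.82-fold (1.73 to 1.91). As a group the 4 immunity-related genes differed by 1.005 and 0.90 on the log2 scale, less than the 6 guanylate-binding genes at 1.44 and 1.18. These are ratios of summed UMIs, and Gbp2 had the most UMIs of the 6 and the largest ratio. The other guanylate-binding genes ran from 0.58 to 1.67 under anti-PD1 and 0.78 to 1.14 under isotype. The immunity-related genes ran from 0.53 to 1.59 and 0.73 to 1.30.

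Anti-PD1 made little difference to these genes in macrophages of either genotype. Over isotype, 0 of 10 members were higher by 1.5-fold in WT (2.0% of 9762 genes tested) and 0 of 10 in KO (3.53% of 8187 genes tested), with median log2 ratios of 0.04 against -0.02 for all genes in WT and 0.09 against -0.08 in KO. Within KO, Gbp2 (0.39, 0.31 to 0.46), Iigp1 (0.39, 0.24 to 0.53) and Gbp4 (0.32, 0.14 to 0.50) were above the isotype pool beyond counting error, whereas Irgm1 was below it (-0.16, -0.31 to -0.01). In WT, Gbp4 (-0.21, -0.37 to -0.05), Igtp (-0.15, -0.27 to -0.04) and Ifi47 (-0.10, -0.18 to -0.02) were lower with anti-PD1. Put as the difference between the genotype ratio under anti-PD1 and that under isotype, Gbp4 gave 0.53 (0.29 to 0.76), Gbp2 0.36 (0.26 to 0.46), Iigp1 0.29 (0.09 to 0.49), Ifi47 0.14 (0.01 to 0.27) and Irgm1 -0.20 (-0.38 to -0.03) on the log2 scale. The sum of the 10 members gave 0.20 (0.14 to 0.26), and the intervals of the other members held 0. The 4 comparisons share libraries in pairs, so they are not independent of one another.

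The cells that met the macrophage gate were not alike in the 2 genotypes by other genes. The summed macrophage markers were 6136, 7480.2, 5159 and 4057 CPM in the usual order, and the summed monocyte markers in the same cells, 5 of 5 present, ran the other way at 3162, 3318, 4468 and 5113 CPM, led by Ms4a6c in WT and Plac8 in KO. The KO anti-PD1 pool also had the fewest macrophages and the lowest depth per cell (medians 14034, 14100.5, 13642 and 11456 UMIs), and the median of all genes in that comparison lay at -0.11 rather than 0. The part of these shifts in the members' ratios was not tested.

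**Figure D1:**
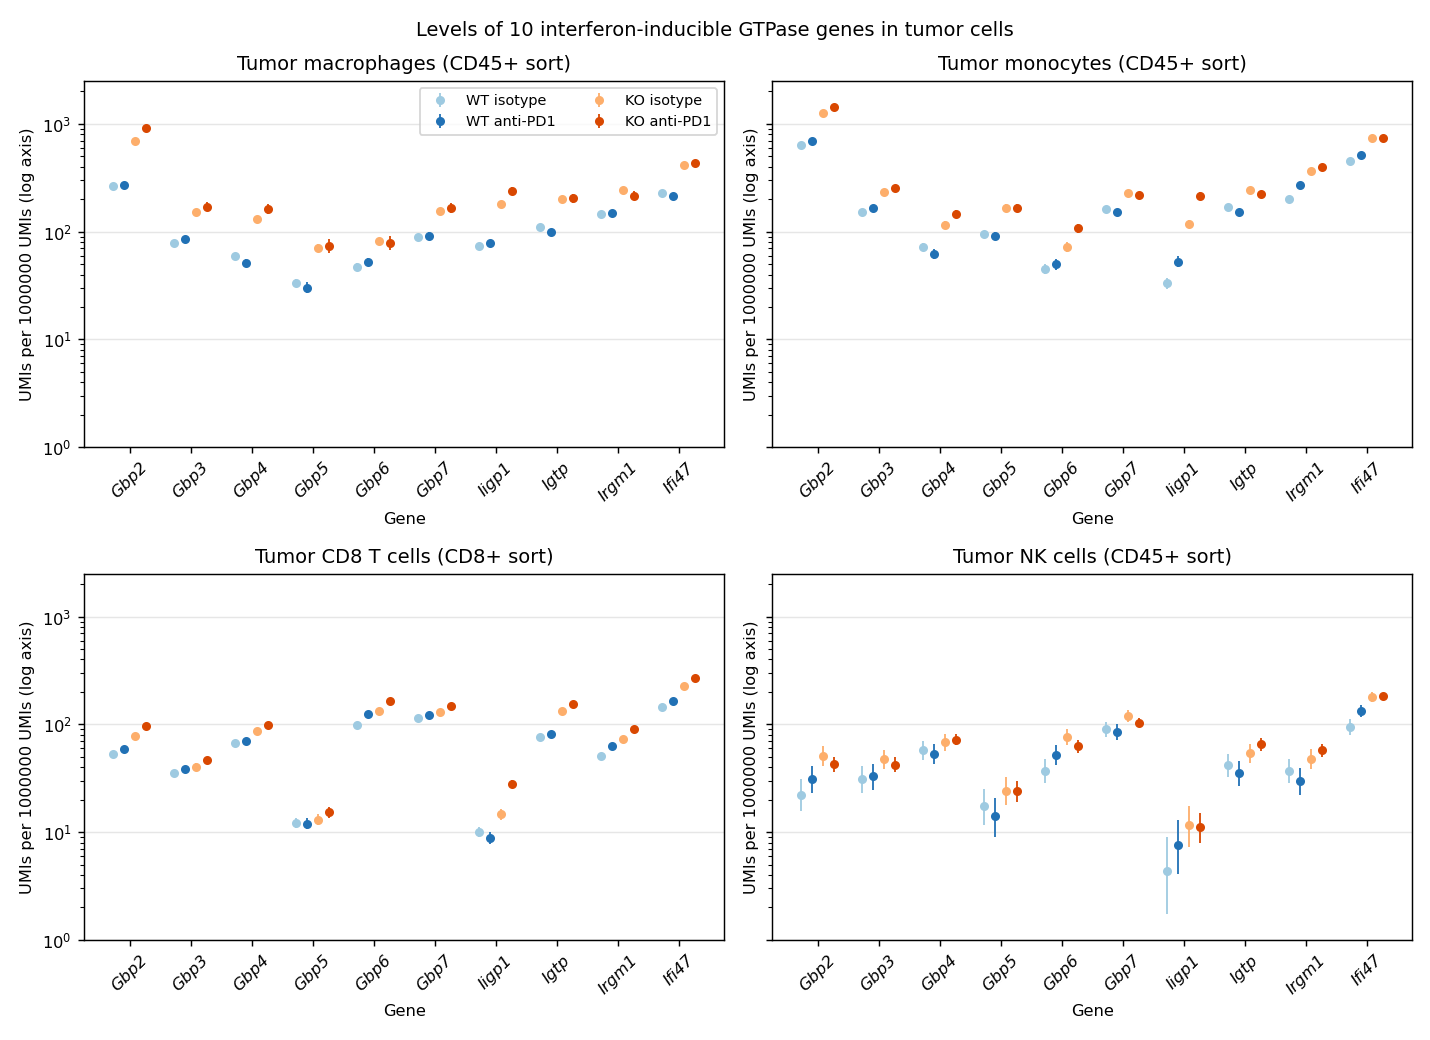
Levels of the 10 genes in 4 tumor cell types, in UMIs per 1000000 UMIs of the cell type on a log axis, 1 point per library with the exact 95% Poisson interval of its count. In macrophages and monocytes both KO points lie above both WT points for each gene.

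Tumor monocytes, the circulating precursors of most tumor macrophages, carried more of these transcripts than macrophages did and differed between genotypes in the same direction. Summed levels were 2023, 2198, 3567 and 3904 CPM, 1.78-fold (1.73 to 1.82) higher in KO under anti-PD1 and 1.76-fold (1.73 to 1.80) under isotype. Under anti-PD1 6 of 10 members were higher by 1.5-fold (5.82% of 7537 genes tested) and under isotype 8 of 10 (4.24% of 8297 genes tested), with medians of 0.75 against -0.06 and 0.70 against -0.07 for all genes. All 10 were above 0 in both. The members short of 1.5-fold under anti-PD1 (Gbp7, Igtp, Irgm1 and Ifi47) had ratios of 0.53, 0.55, 0.55 and 0.54, and with the median ratio of all genes set to 1 the count under anti-PD1 was 10 of 10.

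Iigp1, the effector that disrupts vacuole membranes, had the largest folds in monocytes, and in WT it was the least or second least abundant member there, with 33.1, 52.7, 118 and 216 CPM. It was 4.10-fold (3.57 to 4.72) higher in KO under anti-PD1 and 3.57-fold (3.08 to 4.14) under isotype, and it was also the member that rose past 1.5-fold with anti-PD1, by 1.59-fold (1.34 to 1.89) in WT and 1.83-fold (1.64 to 2.04) in KO. Its UMIs were spread over a minority of cells: at equal depth 5.42%, 7.42%, 14.5% and 20.2% of the monocytes held one, and at most 51 UMIs came from 1 cell. Gbp2 was the most abundant member in every monocyte pool at 643, 689.5, 1274 and 1427 CPM, with genotype ratios of 1.05 (0.99 to 1.11) and 0.99 (0.93 to 1.04). Gbp4 (72.1, 61.8, 115 and 147 CPM) and Gbp6 (45.3, 49.9, 72.0 and 107 CPM) differed more under anti-PD1 (1.25 and 1.10) than under isotype (0.68 and 0.67). The reverse held for the regulator Irgm1, at 201, 274, 366 and 399.5 CPM, with 0.55 under anti-PD1 and 0.86 under isotype. Here the WT anti-PD1 pool was above the WT isotype pool (0.44, 0.34 to 0.55).

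The remaining members kept the order of the pools, both KO above both WT. Gbp5 had 95.1, 91.1, 167 and 166 CPM, Gbp3 151, 164, 234 and 255 and Gbp7 161, 152, 228 and 219. Igtp had 168, 152, 245 and 223 CPM and Ifi47 453, 511, 747 and 745. Between treatments, 1 of 10 members passed 1.5-fold in WT (2.55% of 8353 genes tested) and 1 of 10 in KO (3.17% of 7404 genes tested), Iigp1 in each case. The WT call was gone with cells thinned to 2000 UMIs and with each cell counted the same, and the KO count was 2 under 3 of the alternatives. The monocyte markers outside the gate differed less between the pools (7236, 7832, 8486 and 8749 CPM) than in the macrophages, and the macrophage markers, 5 of 5 present and led by Apoe, were 3501, 4258, 3079.6 and 2779 CPM, again lower in KO. Whether this shift bears on the members' ratios was not tested.

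**Figure D2:**
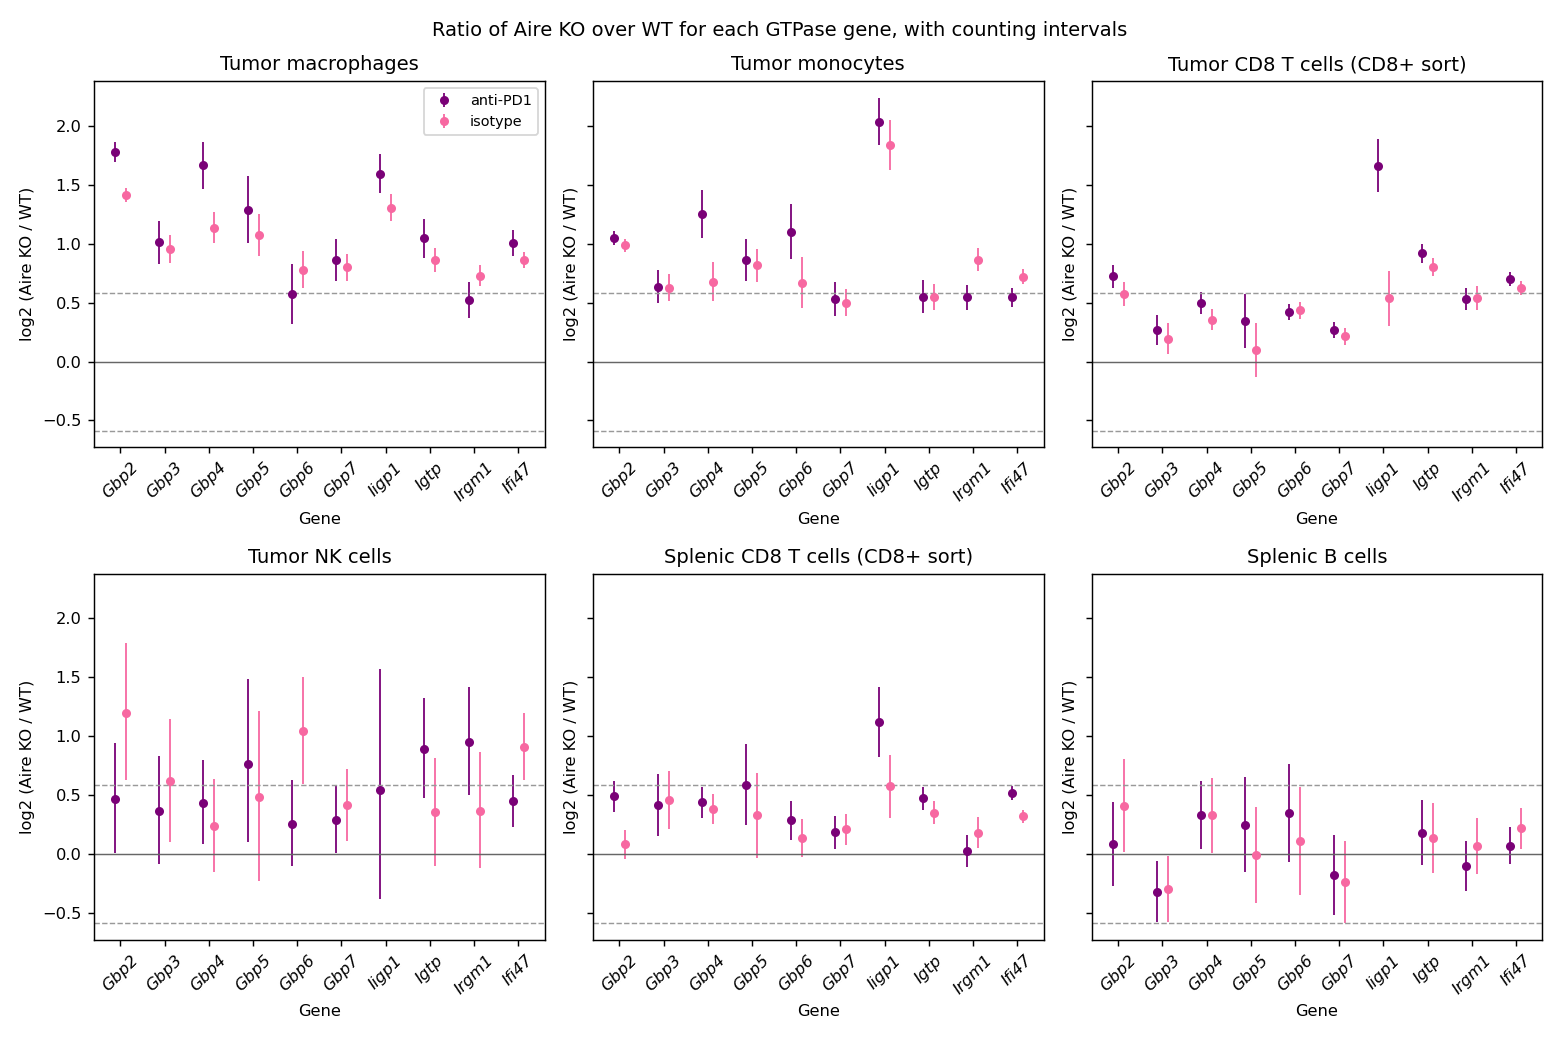
The log2 ratio of KO over WT for each gene with at least 50 UMIs over the 2 libraries, under anti-PD1 (purple) and isotype (pink), with 95% intervals of the counts; dashed lines mark 1.5-fold. All tumor macrophage and monocyte points lie above 0, while splenic B cells have none past 1.5-fold.

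In tumor CD8 T cells of the CD8+ sort the same genes were higher in KO, by less in the sum and the median than in macrophages and monocytes, though not for every gene. All 10 members were above 0 in both comparisons of genotype, and 4 of 10 passed 1.5-fold under anti-PD1 (2.73% of 10522 genes tested) and 2 of 10 under isotype (2.26% of 10624 genes tested). Medians were 0.51 against -0.01 and 0.49 against -0.03 for all genes. With every cell thinned to 2000 UMIs the isotype count was 5 rather than 2, several ratios lying close to 1.5-fold. Summed levels were 662, 745, 928 and 1113 CPM, with log2 ratios of 0.58 (0.55 to 0.61) under anti-PD1 and 0.49 (0.46 to 0.51) under isotype.

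In this sort the sum of the immunity-related GTPases differed more than that of the guanylate-binding proteins. In macrophages, where Gbp2 weighed most, the sums ran the other way. Here the immunity-related genes differed by 0.77 and 0.66 as a group, against 0.42 and 0.35 for the 6 Gbp genes. CD8 T cells of the CD45+ sort gave 0.51 against 0.36 under anti-PD1 but 0.35 against 0.39 under isotype. Iigp1 was scarce at 10.0, 8.82, 14.6 and 27.9 CPM, yet differed by 1.66 (1.44 to 1.89) under anti-PD1 and 0.54 (0.31 to 0.77) under isotype. The regulator Igtp had 75.5, 80.9, 132 and 153 CPM and ratios of 0.92 (0.84 to 0.999) and 0.80 (0.72 to 0.88). Ifi47, the most abundant member in these cells, had 146, 166, 225 and 270.0 CPM and ratios of 0.70 and 0.62, and Irgm1 50.8, 63.0, 73.8 and 90.9 CPM with 0.53 and 0.54. Among the guanylate-binding genes Gbp2 differed most, from 53.0, 58.5, 78.8 and 96.5 CPM (0.72 and 0.57), although its level was far below that of macrophages. Gbp6, by contrast, was more abundant in T cells than in macrophages, with 98.5, 124, 133 and 166 CPM, as were Gbp7 levels in WT (113, 123, 131 and 149 CPM in the 4 pools). Gbp4 (67.3, 70.4, 86.2 and 99.3 CPM), Gbp3 (35.4, 38.4, 40.5 and 46.2) and Gbp5 (12.2, 11.98, 13.1 and 15.2) differed by at most 0.50.

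With anti-PD1, the summed level in tumor CD8 T cells of the CD8+ sort stood slightly above isotype. It was 745 against 662 CPM in WT and 1113 against 928 CPM in KO. Of single members 0 of 10 passed 1.5-fold in WT (1.94% of 10696 genes tested) and 1 of 10 in KO (2.31% of 10431 genes tested). That one was Iigp1, at 0.94 (0.74 to 1.14) in KO against -0.19 (-0.44 to 0.06) in WT. The difference of these 2 ratios was 1.13 (0.81 to 1.44), the largest of any member in these cells.

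CD8 T cells gated from the tumor CD45+ sort were fewer and gave wider intervals. Whether they came from the same mice as the CD8+ sort is not stated. Under anti-PD1 2 of 10 members were higher by 1.5-fold (6.94% of 8443 genes tested), Iigp1 (1.39) and Igtp (0.61), and 1 of 10 was lower (2.68% of 8443 genes tested). The lower one, Gbp5 (-0.62, -1.11 to -0.12), rests on 11, 51, 29 and 114 UMIs in the 4 libraries, and in the WT anti-PD1 library 15 of its UMIs came from 1 cell. The CD8+ sort gave 0.34 for the same gene. Under isotype 1 of 9 was higher (6.5% of 6095 genes tested), Gbp6 (0.79, 0.47 to 1.13). Between treatments 1 of 9 was higher in WT (6.77% of 5848 genes tested), which was again Gbp5, and 1 of 10 in KO (6.05% of 8496 genes tested), which was Iigp1 (1.02, 0.50 to 1.58). Summed levels were 695, 856, 899 and 1157 CPM. The anti-PD1 count of 2 was 7 with cells thinned to 2000 UMIs and 4 with each cell counted the same. It was 1 with the looser gate, with the median ratio of all genes set to 1 and with mitochondrial and ribosomal genes out of the denominator. The lower call of Gbp5 was gone in 4 of the alternatives. The isotype count of 1 was 2 with each cell counted the same, the treatment count in WT ran from 0 to 3 and that in KO was 4 after thinning.

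Macrophage RNA carried over into the T-cell droplets would raise the same genes, so its markers were read there. In CD8 T cells of the CD45+ sort the summed macrophage markers reached 14.7, 44.8, 111 and 9.63 CPM (all 5 were found in 3 of the 4 pools and Adgre1 was at 0 in WT isotype). That is 0.239%, 0.599%, 2.15% and 0.237% of the level in macrophages of the same library, whereas Gbp2 in the same T cells was at 24.4%, 31.0%, 12.4% and 12.2% of its macrophage level. Apoe, which T cells should lack, was found in 0%, 2.02%, 2.56% and 1.03% of those T cells and in 79.0%, 84.2%, 75.1% and 71.8% of macrophages, each thinned to 2000 UMIs from median depths of 9886, 8766, 10121 and 8897 UMIs in T cells and 14034, 14100.5, 13642 and 11456 in macrophages. The T-cell gate had already left out cells with over 4 UMIs of the C1q genes or over 9 of Lyz2. Low macrophage markers in the cells kept follow in part from that gate. RNA from monocytes was not looked at here, and how much free RNA adds to the members in T cells was not tested.

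Tumor NK cells held the lowest levels of the 4 tumor types. Summed levels were 433, 475, 679 and 665 CPM, 1.40-fold (1.29 to 1.52) higher in KO under anti-PD1 and 1.57-fold (1.43 to 1.72) under isotype. Under anti-PD1 3 of 10 members passed 1.5-fold (4.86% of 7093 genes tested), Irgm1 (0.95, 0.50 to 1.42), Igtp (0.89, 0.48 to 1.32) and Gbp5 (0.77, 0.10 to 1.49). Under isotype 4 of 9 did (8.2% of 5925 genes tested), Gbp2 (1.20, 0.63 to 1.79), Gbp6 (1.04, 0.60 to 1.501), Ifi47 (0.91, 0.63 to 1.20) and Gbp3 (0.62, 0.10 to 1.15). Ifi47 was the most abundant at 94.7, 134, 178 and 183 CPM and Iigp1 the least, with 7, 13, 22 and 40 UMIs in all. Anti-PD1 over isotype gave 0 of 9 in WT (6.03% of 5822 genes tested) and 0 of 10 in KO (4.54% of 7135 genes tested). Of these NK cells 15.4, 14.7, 7.14 and 10.2% held over 3 times the median UMIs of their pool, and the anti-PD1 count was 1 after thinning and 5 with each cell counted the same. The isotype count was 2 with a minimum of 200 UMIs. The treatment counts were 1 with a minimum of 10 UMIs in WT, and 1 after thinning or with each cell counted the same in KO.

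In the spleen, monocytes and CD8 T cells, the types measured in both tissues with enough UMIs, also held more of these transcripts in KO. Splenic monocytes held 316, 282, 472 and 663 CPM over the 10 genes, with 352, 212, 293 and 259 UMIs in all. Where at least 50 UMIs allowed a ratio, 3 of 4 members were higher in KO under anti-PD1 (5.95% of 3128 genes tested), Gbp2 (1.51, 0.82 to 2.22), Igtp (1.77, 0.90 to 2.69) and Ifi47 (1.77, 1.30 to 2.26), and 4 of 5 under isotype (3.63% of 4191 genes tested). With a minimum of 10 UMIs the first count was 5. Genes pass that limit more easily where they are high, so these counts stand for the members measured and not for the family. Anti-PD1 over isotype gave 0 of 5 in WT (3.8% of 4419 genes tested) and 3 of 5 in KO (5.04% of 2799 genes tested), the same 3 genes, in the pool with the fewest cells. Gbp4 was at 1, 0, 1 and 0 UMIs and Iigp1 at 0, 0, 0 and 0, which allows at most 7.68 CPM by 3 counts in the smallest pool.

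Splenic CD8 T cells of the CD8+ sort gave the most UMIs in the spleen. All 10 members were above 0 in KO under anti-PD1 and under isotype, 2 of 10 past 1.5-fold in the first (4.65% of 9833 genes tested), Iigp1 at 1.12 (0.82 to 1.42) and Gbp5 at 0.59 (0.25 to 0.93), and 0 of 10 in the second (4.33% of 9844 genes tested). The first count was 1 with either other denominator and 4 after thinning, Gbp5 lying at the limit of 1.5-fold, and the second was 1 with each cell counted the same. Medians were 0.46 against 0.07 and 0.33 against 0.01 for all genes. Ifi47 was by far the most abundant, with 282, 247, 353 and 354 CPM, followed by Igtp at 94.0, 84.3, 119.9 and 117 CPM. Irgm1 hardly differed, at 53.7, 52.2, 60.9 and 53.3 CPM. In the CD45+ sort, splenic CD8 T cells gave 1 of 7 (6.48% of 4258 genes tested) and 0 of 7 (5.02% of 3863 genes tested), and 3 and 1 with a minimum of 10 UMIs. There 6 of 7 and 5 of 7 were above 0, with Irgm1 below 0 in both, at -0.22 (-0.78 to 0.34) and -0.24 (-0.82 to 0.34). Splenic B cells had summed levels of 258, 287, 276 and 296 CPM, near those of WT splenic monocytes and below all other types, and 0 of 9 members past 1.5-fold under anti-PD1 (2.82% of 9251 genes tested) and 0 of 9 under isotype (1.22% of 9110 genes tested), the latter 2 after thinning. Gbp3 and Gbp7 were below 0 in KO B cells in both comparisons, Gbp3 by -0.32 (-0.58 to -0.06) and -0.29 (-0.58 to -0.01), from 33.9, 36.7, 27.7 and 29.4 CPM, and Gbp7 by -0.18 (-0.51 to 0.16) and -0.23 (-0.58 to 0.12). Iigp1 had 0, 0, 0 and 8 UMIs there, 7 of the last in 1 cell. Splenic NK cells were too few for ratios of most members (summed levels 552, 622, 801 and 690.2 CPM).

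Within a cell type, tumor and spleen differed most in monocytes. For all 10 genes monocytes of the tumor were above those of the spleen in 4 of 4 conditions, with medians of 3.05, 3.43, 3.20 and 3.49 on the log2 scale against -0.27, -0.29, -0.28 and -0.26 for all genes, of which 35.3%, 35.9%, 36.9% and 38.7% were higher in tumor. Gbp2 was 12.1- to 20.3-fold higher in tumor, Gbp6 8.95- to 18.7-fold, Gbp5 8.83- to 13.7-fold and Gbp7 7.81- to 17.1-fold. Irgm1 (2.55- to 3.86-fold), Igtp (2.72- to 6.36-fold), Ifi47 (2.77- to 6.50-fold) and Gbp3 (3.72- to 5.87-fold) differed by less than Gbp2. Gbp4 was 80.3-fold higher in WT isotype and 71.7-fold in KO isotype, but each value rests on 1 splenic UMI. It had 0 UMIs in spleen in WT anti-PD1 and KO anti-PD1, where a floor of 3 counts gives at least 15.5-fold and at least 19.2-fold. For Iigp1, with 0 UMIs in spleen in all 4 conditions, that floor gives at least 12.3-fold in WT isotype and at least 28.1-fold in KO anti-PD1. Tumors were dissociated with enzymes and spleens by mechanical dispersion, so tissue and preparation cannot be told apart.

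In CD8 T cells the members went different ways between tissues. In the CD8+ sort, 5 of 10, 8 of 10, 8 of 10 and 9 of 10 were higher in tumor in the 4 conditions (53.6%, 54.9%, 51.4% and 52.2% of all genes tested), with medians of 0.16, 0.40, 0.32 and 0.60 against 0.07, 0.10, 0.03 and 0.04 for all genes. The counts of 8 were 5 with mitochondrial and ribosomal genes out of the denominator, and the count of 5 was 8 with each cell counted the same. Gbp6 (2.60- to 4.09-fold), Gbp7 (2.13- to 2.78-fold) and Gbp3 (2.04- to 2.96-fold) were higher in tumor in 4 of 4 conditions. Ifi47 was higher in spleen in 4 of 4, its log2 ratio of tumor over spleen running from -0.95 to -0.39, and it was so in the CD45+ sort as well (-0.87 to -0.38) and in NK cells (-1.34 to -0.87). In CD8 T cells of the CD45+ sort 5 of 8, 8 of 9, 7 of 8 and 7 of 10 members were higher in tumor (59.5%, 58.9%, 58.2% and 55.8% of all genes tested), with medians of 0.25, 0.53, 0.48 and 0.49 against 0.17, 0.17, 0.14 and 0.11 for all genes, and the WT anti-PD1 count was 4 after thinning. NK cells gave 4 of 7, 2 of 8, 6 of 9 and 7 of 9 (41.7%, 41.0%, 36.0% and 39.0% of all genes tested) and medians of 0.19, -0.03, 0.17 and 0.20 against -0.19, -0.19, -0.27 and -0.27, with 49 to 84 splenic cells in a pool. The WT anti-PD1 count of 2 was 5 under 4 of the alternatives, and the KO anti-PD1 count of 7 was 4 with a minimum of 200 UMIs. Gbp4 had ratios below 0 in NK cells in 4 of 4 conditions, but only the KO isotype interval left out 0. The values were -0.47 (-1.10 to 0.21), -0.03 (-0.90 to 0.98), -0.66 (-1.22 to -0.06) and -0.11 (-0.78 to 0.64) in the usual order.

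**Figure D3:**
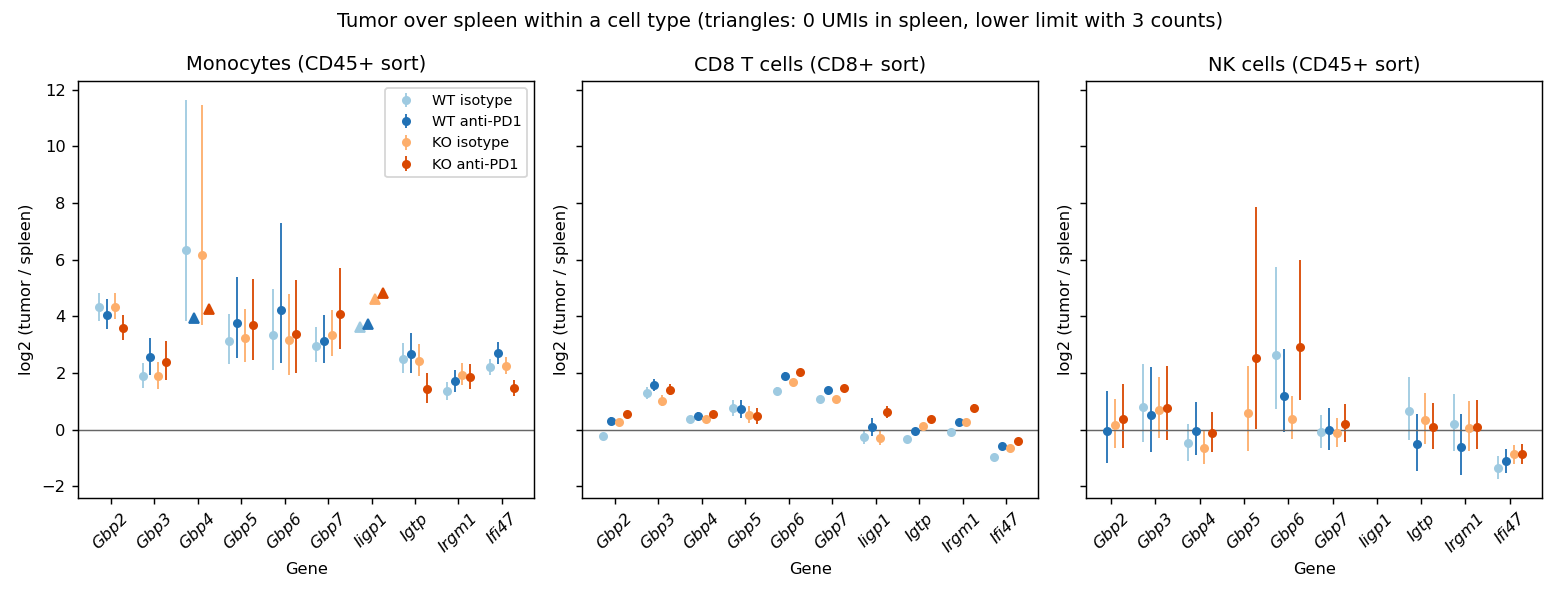
The log2 ratio of the level in tumor over that in spleen for each gene, within monocytes, CD8 T cells and NK cells, 1 point per genotype and treatment with the 95% interval of the counts. Triangles mark 0 UMIs in spleen, where 3 counts give a lower limit; Ifi47 lies below 0 in CD8 T and NK cells and above 0 in monocytes.

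More of the KO than of the WT myeloid cells carried several members at once. With every cell thinned to 2000 UMIs and shallower cells left out, UMIs of at least 5 of the 10 genes were found in 6.88% (5.40 to 8.61), 7.21% (5.36 to 9.44), 24.9% (21.2 to 29.0) and 26.0% (19.7 to 33.0) of macrophages. In monocytes the shares were 14.6% (12.01 to 17.5), 17.5% (14.1 to 21.4), 30.1% (25.8 to 34.7) and 36.2% (31.1 to 41.6). Macrophages with no UMI of any member were 29.5, 29.9, 11.5 and 10.5% in the usual order, and monocytes with none 19.7, 21.1, 8.39 and 9.50%. The median cell held 1, 1, 3 and 4 member UMIs among macrophages and 3, 3, 6 and 7 among monocytes. Without thinning the shares were 55.5, 53.2, 79.8 and 74.0% of macrophages and 63.3, 62.9, 83.2 and 78.3% of monocytes, at median depths of 14034, 14100.5, 13642 and 11456 and 11382, 11628, 11903 and 10559 UMIs.

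Gbp2 alone was found in 28.9%, 26.6%, 51.5% and 60.2% of thinned macrophages and 46.8%, 44.5%, 65.7% and 67.7% of monocytes, and Ifi47 in 30.0%, 28.4%, 46.6% and 48.1% and 47.9%, 49.9%, 65.7% and 63.2%. Iigp1 was found in 11.5%, 11.7%, 26.2% and 28.2% of macrophages. In tumor CD8 T cells of the CD8+ sort 3.84% (3.12 to 4.68), 4.57% (3.72 to 5.56), 6.95% (5.80 to 8.24) and 9.22% (8.02 to 10.5) of cells held at least 5 members (38.7, 41.4, 47.5 and 49.7% without thinning), again higher in KO. In the CD45+ sort the shares were 5.08% (1.89 to 10.7), 5.56% (2.81 to 9.72), 7.69% (4.37 to 12.4) and 10.6% (8.41 to 13.2) (29.7, 37.9, 48.2 and 51.1% without thinning). NK cells gave 0.962, 0.775, 1.95 and 2.64% (29.8, 31.8, 35.7 and 39.6% without thinning). In spleen, CD8 T cells of the CD8+ sort gave 1.14, 0.729, 1.41 and 1.31% (12.1, 9.51, 15.9 and 12.8% without thinning), and B cells 0, 0.217, 0 and 0.0594% (1.59, 1.46, 1.88 and 1.24%).

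**Figure D4:**
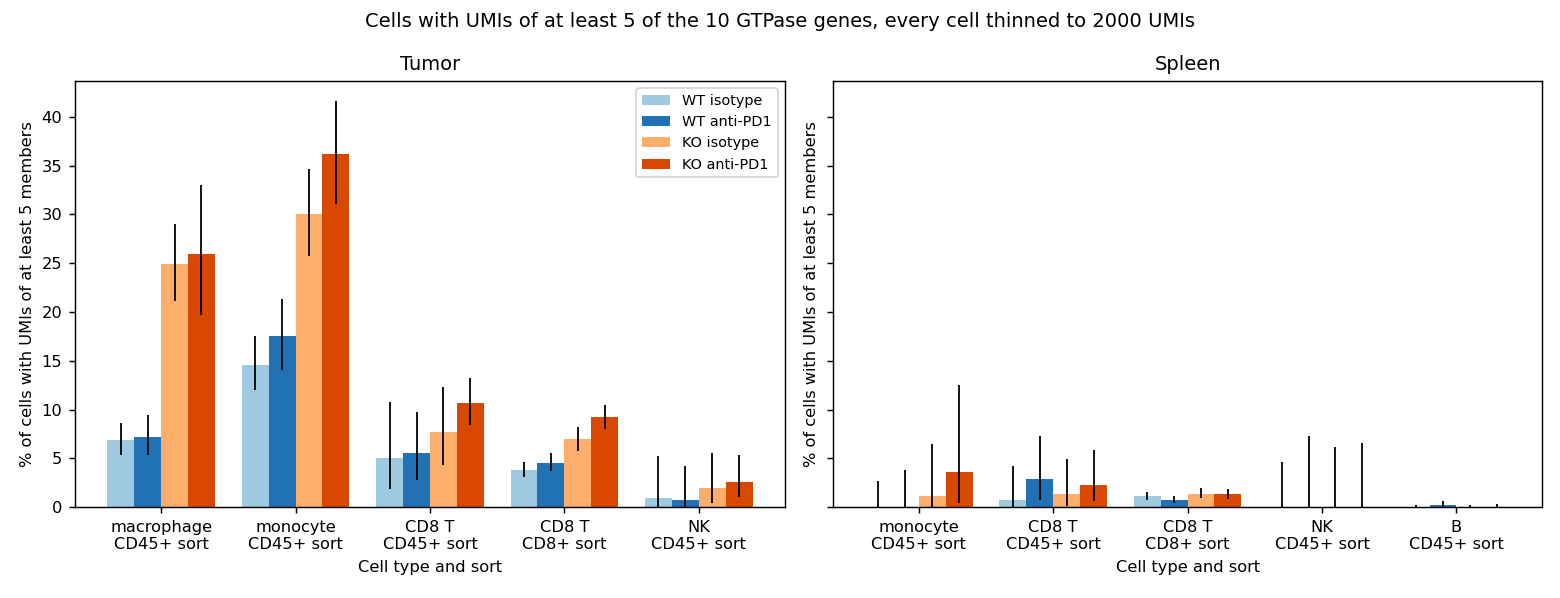
Percent of cells with UMIs of at least 5 of the 10 genes after thinning every cell to 2000 UMIs, by cell type, sort, tissue and condition, with exact 95% binomial intervals. Tumor macrophages and monocytes of KO mice stand above those of WT mice, and splenic shares are at most 3.64%.

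Members also varied together from cell to cell in tumor macrophages, tumor monocytes and tumor CD8 T cells of the CD8+ sort. Within single libraries with at least 100 cells of a type, and with levels divided by the UMIs of the cell, the correlation of each member with the sum of the other 9 ran from 0.42 to 0.70 in macrophages, 0.26 to 0.73 in tumor monocytes and 0.24 to 0.57 in tumor CD8 T cells of the CD8+ sort. It ran from 0.05 to 0.31 in splenic CD8 T cells of that sort and 0.03 to 0.20 in splenic B cells, where counts per cell are sparse. In CD8 T cells of the CD45+ sort, which were fewer, it ran from 0.22 to 0.65 in tumor and -0.11 to 0.44 in spleen, in tumor NK cells from 0.13 to 0.54, and in splenic monocytes, of which 2 libraries held enough, from -0.11 to 0.36. These levels were not free of depth, with correlations to it of -0.27 to 0.38 over all types. In cells thinned to 2000 UMIs, an alternative chosen after seeing the data, the values were 0.18 to 0.54 in macrophages, 0.15 to 0.52 in tumor monocytes, 0.13 to 0.41 and -0.01 to 0.19 in tumor and splenic CD8 T cells of the CD8+ sort, -0.02 to 0.18 in splenic B cells and, in CD8 T cells of the CD45+ sort, -0.01 to 0.47 in tumor and -0.20 to 0.30 in spleen. In tumor NK cells they were -0.06 to 0.27, and in splenic monocytes, with 1 library left of at least 100 cells, -0.09 to 0.17. Cells with fewer UMIs are not in these values, nor is Gbp5 in splenic CD8 T cells of the WT isotype CD45+ library, where it did not vary once thinned. Across the 40 pools of cell type and library, which share mice and tissue, Gbp2 went most closely with Irgm1 (r of 0.94), Gbp3 with Gbp5 (0.90) and Gbp4 with Gbp7 (0.84). Gbp4 and Irgm1 had the lowest value, 0.17. By level, 7 members peaked in tumor monocytes of KO mice, Gbp4 and Iigp1 in KO anti-PD1 macrophages and Gbp6 in KO anti-PD1 CD8 T cells. Of 5466 other genes ranked over the same pools, those most like the members' mean were Nmi (0.91), Parp10 (0.90), Ifit2 (0.90), Pydc4 (0.89) and Ier3 (0.89).

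Other GTPases of the same families, where measured, were mostly higher in KO in tumor myeloid cells too. Of 15 such genes, those with enough UMIs gave 7 of 9 past 1.5-fold in KO macrophages under anti-PD1 (median 0.95) and 10 of 11 under isotype (0.82), and in monocytes 4 of 9 (0.51) and 6 of 9 (0.69). Of all genes tested 6.87, 4.76, 5.82 and 4.24% passed in these comparisons. Above 0 were 8 of 9, 11 of 11, 8 of 9 and 9 of 9, and the lowest ratios under anti-PD1 were -0.43 in macrophages and -0.10 in monocytes. Tgtp2, an effector of the immunity-related family, had 50.5, 50.4, 97.8 and 94.3 CPM in macrophages, and Irgm2, the third regulator, 18.3, 19.5, 30.5 and 34.4 CPM. Gbp9 had 50.5, 43.2, 83.4 and 87.8 CPM. Gvin1 had 0 UMIs in each of these pools.

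Ifng, the gene of interferon-gamma, stood highest over the sorted CD45+ cells of KO tumors given anti-PD1. Over all cells of the tumor CD45+ libraries Ifng stood at 61.6, 58.5, 98.5 and 269.6 CPM, with 57.8, 82.9, 82.2 and 86.6% of its UMIs in gated CD8 T cells and 17.9, 10.2, 10.5 and 10.4% in NK cells. The number of CD8 T cells in those libraries was also highest in KO under anti-PD1 (118, 198, 195 and 677), and within CD8 T cells Ifng stood at 728, 538, 706 and 659.5 CPM in the CD8+ sort, 0.29 (0.26 to 0.33) on the log2 scale for KO over WT under anti-PD1 and -0.04 (-0.07 to -0.01) under isotype. In the CD45+ sort it stood at 1069.7, 679, 865 and 770.1 CPM there, with 0.18 (0.10 to 0.27) and -0.31 (-0.41 to -0.21). In splenic CD45+ libraries it was at 5.03, 3.48, 4.03 and 6.97 CPM. Macrophages and monocytes of the tumor held at most 1.13 CPM of Ifng. The members' own level over all tumor CD45+ cells was 1337, 1332, 2281 and 1892 CPM, in libraries that differ in their mix of cell types. Whether the level of Ifng bears on that of the members was not tested.

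In tumor macrophages and monocytes the median ratio of 19 interferon-gamma pathway genes lay below that of the GTPases, while single genes differed as much or more. The list holds receptors, signalling genes and targets. Its median could lie above elsewhere, as in tumor NK cells under isotype (0.57 against 0.49) and splenic CD8 T cells of the CD45+ sort under isotype (0.34 against 0.32). In macrophages Ifngr1 had 179.7, 185, 173 and 175 CPM (KO over WT under anti-PD1 -0.08 (-0.24 to 0.09)) and Ifngr2 190.0, 183, 189 and 151 (-0.28, -0.45 to -0.11). Irf1, a transcription factor induced through the receptor, had 194, 206, 288 and 356 CPM (KO over WT 0.79 (0.66 to 0.91) under anti-PD1). Socs1, the feedback inhibitor of the pathway, had 115, 96.3, 205 and 228 CPM (1.24, 1.08 to 1.40), and the chemokine Cxcl9, a target that interferon-gamma induces, 159.8, 349, 589 and 957 CPM (1.46, 1.38 to 1.54). Of 19 pathway genes 7 of 17 tested were higher by 1.5-fold in KO macrophages under anti-PD1 (median 0.49) and 8 of 17 under isotype (0.57). Monocytes gave 7 of 17 (0.38) and 6 of 17 (0.47). Of all genes tested 6.87, 4.76, 5.82 and 4.24% were that much higher in these comparisons. Antigen presentation genes, a later part of the same response, gave 1 of 9 (0.33) and 0 of 9 (0.28) in macrophages. Partners of the GTPases in defence such as Gsdmd and Aim2 gave 0 of 8 (0.19) and 1 of 8 (0.15). The counts of both lists are near the shares of all genes in macrophages.

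Genes known best for their response to type I interferon did not move with the GTPases in tumor myeloid cells under anti-PD1. In KO macrophages under anti-PD1 0 of 16 were higher by 1.5-fold (6.87% of genes tested), with a median of 0.13, where 8 of 10 members were. Under isotype 7 of 16 were (4.76% of genes tested), with 0.56. In monocytes under anti-PD1 0 of 16 were higher (5.82% of genes tested) and 4 of 16 lower (median -0.35, with 764 of 7537 genes tested lower). All 10 members were above 0 there. Under isotype 3 of 16 were higher in monocytes (4.24% of genes tested) and 16 of 16 above 0 (median 0.31). Within KO, anti-PD1 over isotype gave 6 of 16 lower in macrophages (median -0.48, 747 of 8187 genes tested lower) and 6 of 16 in monocytes (-0.48, 344 of 7404 genes tested), against member medians of 0.09 and 0.13. Ifit3, for example, had 699, 776, 808 and 492 CPM in monocytes. In tumor CD8 T cells of the CD8+ sort the list was higher in KO, 4 of 16 under anti-PD1 (median 0.29) and 6 of 16 under isotype (0.54). Of all genes tested 2.73 and 2.26% were higher there. NK cells gave 3 of 15 (0.25) and 11 of 14 (0.87), beside 4.86 and 8.2% of all genes tested.

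Promoters of the members were compared, 250 bases before to 50 after the RefSeq start of the gene in GRCm38.p6. Promoters of 7 of the 10 genes (8 in all, Gbp3 having 2) were searched. Gbp4, Gbp6 and Iigp1 were not part of this search, so nothing is said of their promoters. Searched on both strands were 2 copies of GAAA set 2 bases apart, the core of the interferon-stimulated response element. A second motif was also searched, and its results are not given here. The GAAA pairs are in 3.44% of all 32851 promoters. Of the members, Gbp2, Gbp3 (in 1 of its 2 promoters), Gbp5, Gbp7, Igtp and Irgm1 hold the pairs, with 2 matches that overlap each other in Gbp3 and in Irgm1. The promoter of Ifi47 holds none within this window. A match of letters is a description and does not show that a factor binds. Printed here are Gbp2, the most abundant member in KO macrophages (chr3:142620413-142620712, plus strand), and Irgm1 with the overlapping pair (chr11:48871371-48871670, minus strand). Each reads 5′ to 3′ on the strand of the gene, with matches in capitals.
Gbp2: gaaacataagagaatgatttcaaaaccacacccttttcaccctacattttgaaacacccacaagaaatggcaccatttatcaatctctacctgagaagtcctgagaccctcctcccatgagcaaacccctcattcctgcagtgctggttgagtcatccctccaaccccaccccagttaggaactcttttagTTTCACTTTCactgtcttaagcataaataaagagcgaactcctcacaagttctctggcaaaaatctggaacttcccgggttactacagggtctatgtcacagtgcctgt
Irgm1: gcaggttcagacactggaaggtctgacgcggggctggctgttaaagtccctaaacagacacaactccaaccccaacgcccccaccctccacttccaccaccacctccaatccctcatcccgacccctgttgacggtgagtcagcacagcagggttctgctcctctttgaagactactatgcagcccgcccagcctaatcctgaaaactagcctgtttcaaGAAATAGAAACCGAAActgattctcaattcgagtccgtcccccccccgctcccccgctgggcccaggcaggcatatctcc

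The match begins 59 bases before the start in Gbp2, 165 in Gbp5, 53 in Gbp7 and 34 in Igtp, and the first of the pair 30 bases before it in Irgm1 and 45 in Gbp3.

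Several members are neighbours in the genome and share sequence, which bears on how their reads can be told apart. Gbp5, Gbp7, Gbp3 and Gbp2 lie in this order on the plus strand of chromosome 3, from 142496934 to 142638008, and Gbp4 and Gbp6 on the minus strand of chromosome 5 among Gbp8, Gbp9, Gbp10 and Gbp11. On chromosome 11, Irgm1 (minus strand) and Ifi47 (plus strand) flank the Tgtp genes, and Igtp lies further along beside Irgm2. Runs of 50 bases were taken from transcripts of the GENCODE annotation. Of all runs of Gbp6, 70.7% also occur in another gene, mostly Gm43302 and Gbp10. Of the runs in its last 600 bases, the part that reads from the 3′ end would cover, 89.3% do. Reads from such runs cannot be told apart between these genes, so the Gbp6 level may leave out or take in their RNA. For Gbp4 the shares were 7.70% and 13.7%. Igtp shares 11.8% with Irgm2 and Gbp7 12.7%, neither in the last 600 bases. The other 6 members share at most 3.75%.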

How the data were processed

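The values are counts, UMIs per gene and cell barcode, as deposited. The authors made them with Cell Ranger and deposited only barcodes called as cells. The version of Cell Ranger is named only in the methods passage with the 5′ kit. The sample records name GRCm38 as the genome build. The 10 members were taken by symbol, with all lines of a symbol summed, and they and the gene lists were chosen with earlier results of these data known. All 10 members are named, and genes of the other lists only where the text needs them; single genes picked out as most alike were chosen after their values were seen.

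Of 37609 barcodes, 156 with under 200 genes or over 20% mitochondrial UMIs were removed. Cells were typed by UMI gates on marker genes, and UMIs summed per cell type and library where it had at least 20 cells. Median depth per library ran from 4414 to 12252 UMIs per cell. No doublets were removed. Ratios divide levels of 2 libraries of the same tissue and sort, with a conditional exact 95% interval of the counts; a gene with at least 50 UMIs over the pair was called higher or lower past 1.5-fold. With 1 library per group no test between groups was run. Alternatives were looser and stricter gates, no cell filter, cells thinned to 2000 UMIs, 2 other denominators, each cell counted the same, cells over 3 times the median UMIs left out, and minima of 10 and 200 UMIs; shares of cells were also taken at 4000 UMIs and without thinning. The ratio code was tested on simulated data. Python 3.11.15, numpy 2.4.6, scipy 1.17.1, pandas 2.3.3 and matplotlib 3.10.9 were used.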

Additional observations from a re-analysis of the deposited data

Results flagged for a closer look

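Log2 ratios of anti-PD1 over isotype whose intervals lie on opposite sides of 0 in 2 places were picked out after the values were seen. In CD8 T cells of the CD8+ sort from WT mice the ratio was above 0 in tumor and below 0 in spleen for 5 members: Gbp2 0.14 (0.04 to 0.24) in tumor and -0.40 (-0.53 to -0.27) in spleen, Gbp6 0.33 (0.26 to 0.40) in tumor and -0.19 (-0.35 to -0.03) in spleen, Gbp7 0.12 (0.05 to 0.19) in tumor and -0.18 (-0.31 to -0.04) in spleen, Igtp 0.10 (0.01 to 0.18) in tumor and -0.16 (-0.26 to -0.06) in spleen, and Ifi47 0.19 (0.13 to 0.25) in tumor and -0.19 (-0.25 to -0.13) in spleen. The sum of the 10 members gave 0.17 (0.14 to 0.20) in tumor and -0.18 (-0.22 to -0.14) in spleen. In KO mice the same cells gave Gbp7 0.18 (0.10 to 0.25) in tumor and -0.21 (-0.35 to -0.07) in spleen, and Irgm1 0.30 (0.21 to 0.40) in tumor and -0.19 (-0.33 to -0.05) in spleen. None of these values passed 1.5-fold.

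Gbp4 differed in sign between genotypes in tumor myeloid cells. In macrophages its ratio was -0.21 (-0.37 to -0.05) in WT and 0.32 (0.14 to 0.50) in KO, and in monocytes -0.22 (-0.42 to -0.02) in WT and 0.35 (0.18 to 0.52) in KO. Igtp in KO monocytes was -0.13 (-0.26 to -0.01) in tumor and 0.86 (0.08 to 1.65) in spleen, the latter from a pool of 55 cells. These intervals cover counting error alone, the tissues were prepared differently, and the differences were not tested.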

How the results depend on the processing

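KO over WT ratios of the members and their sum in tumor macrophages and monocytes kept their sign in all 440 values under the alternatives, 34 of which lay outside the counting interval of the value in the report. Of 340 medians of the members 48 moved and 10 changed sign. Of 294 counts of members past 1.5-fold under an alternative, 258 stayed within 1.5 times the count in the report, and of 151 counts of members higher in tumor 142 did. Counts could only stay or move, so a reversal was looked for only in medians and single ratios. None of at least 1.5-fold in either direction changed sign. Single ratios below that fold changed sign in 123 of 3867 values. The counts below are those in the report followed by those under the alternative, and the cause of each move was not tested.

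With at least 10 UMIs over the pair, the count of members higher past 1.5-fold moved in splenic CD8 T cells (CD45+ sort), KO over WT under anti-PD1 (1 to 3), in splenic CD8 T cells (CD45+ sort), KO over WT under isotype (0 to 1), in tumor NK cells, anti-PD1 over isotype in WT (0 to 1), in splenic monocytes, KO over WT under anti-PD1 (3 to 5). With at least 200 UMIs over the pair, the count of members higher past 1.5-fold moved in tumor CD8 T cells (CD45+ sort), anti-PD1 over isotype in WT (1 to 0), in tumor NK cells, KO over WT under isotype (4 to 2), and the count of members lower past 1.5-fold moved in tumor CD8 T cells (CD45+ sort), KO over WT under anti-PD1 (1 to 0), and the count of members higher in tumor than in spleen moved in NK cells of the CD45+ sort, KO anti-PD1 (7 to 4). With cells over 3 times the median UMIs left out, the count of members higher past 1.5-fold moved in tumor CD8 T cells (CD45+ sort), anti-PD1 over isotype in WT (1 to 3). With cells thinned to 2000 UMIs, the count of members higher past 1.5-fold moved in splenic B cells, KO over WT under isotype (0 to 2), in splenic CD8 T cells (CD8+ sort), KO over WT under anti-PD1 (2 to 4), in tumor CD8 T cells (CD45+ sort), KO over WT under anti-PD1 (2 to 7), in tumor CD8 T cells (CD45+ sort), anti-PD1 over isotype in KO (1 to 4), in tumor CD8 T cells (CD8+ sort), KO over WT under isotype (2 to 5), in tumor NK cells, KO over WT under anti-PD1 (3 to 1), in tumor NK cells, anti-PD1 over isotype in KO (0 to 1), in tumor monocytes, anti-PD1 over isotype in WT (1 to 0), and the count of members lower past 1.5-fold moved in tumor CD8 T cells (CD45+ sort), KO over WT under anti-PD1 (1 to 0), and the count of members higher in tumor than in spleen moved in CD8 T cells of the CD45+ sort, WT anti-PD1 (8 to 4). With each cell counted the same, the count of members higher past 1.5-fold moved in splenic CD8 T cells (CD8+ sort), KO over WT under isotype (0 to 1), in tumor CD8 T cells (CD45+ sort), KO over WT under anti-PD1 (2 to 4), in tumor CD8 T cells (CD45+ sort), KO over WT under isotype (1 to 2), in tumor NK cells, KO over WT under anti-PD1 (3 to 5), in tumor NK cells, anti-PD1 over isotype in KO (0 to 1), in tumor monocytes, anti-PD1 over isotype in WT (1 to 0), and the count of members lower past 1.5-fold moved in tumor CD8 T cells (CD45+ sort), KO over WT under anti-PD1 (1 to 0), and the count of members higher in tumor than in spleen moved in CD8 T cells of the CD8+ sort, WT isotype (5 to 8), in NK cells of the CD45+ sort, WT anti-PD1 (2 to 5). Under the looser gate, the count of members higher past 1.5-fold moved in tumor CD8 T cells (CD45+ sort), KO over WT under anti-PD1 (2 to 1), in tumor CD8 T cells (CD45+ sort), anti-PD1 over isotype in WT (1 to 2), and the count of members lower past 1.5-fold moved in tumor CD8 T cells (CD45+ sort), KO over WT under anti-PD1 (1 to 0), and the count of members higher in tumor than in spleen moved in NK cells of the CD45+ sort, WT anti-PD1 (2 to 5). Under the stricter gate, the count of members higher past 1.5-fold moved in tumor CD8 T cells (CD45+ sort), anti-PD1 over isotype in WT (1 to 2), in tumor monocytes, anti-PD1 over isotype in KO (1 to 2). With the median ratio of all genes set to 1, the count of members higher past 1.5-fold moved in splenic CD8 T cells (CD8+ sort), KO over WT under anti-PD1 (2 to 1), in tumor CD8 T cells (CD45+ sort), KO over WT under anti-PD1 (2 to 1), in tumor monocytes, KO over WT under anti-PD1 (6 to 10), in tumor monocytes, anti-PD1 over isotype in KO (1 to 2), and the count of members higher in tumor than in spleen moved in NK cells of the CD45+ sort, WT anti-PD1 (2 to 5). With mitochondrial and ribosomal genes out of the denominator, the count of members higher past 1.5-fold moved in splenic CD8 T cells (CD8+ sort), KO over WT under anti-PD1 (2 to 1), in tumor CD8 T cells (CD45+ sort), KO over WT under anti-PD1 (2 to 1), in tumor monocytes, anti-PD1 over isotype in KO (1 to 2), and the count of members higher in tumor than in spleen moved in CD8 T cells of the CD8+ sort, KO isotype (8 to 5), in CD8 T cells of the CD8+ sort, WT anti-PD1 (8 to 5), in NK cells of the CD45+ sort, WT anti-PD1 (2 to 5). Leaving out the cell filter moved no count.

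Thinned to 4000 UMIs in place of 2000, the shares of cells with at least 5 members were 0.256, 0.510, 0.918 and 0.386% of splenic B cells in the usual order. They were 6.03, 4.69, 5.38 and 8.81% of splenic CD8 T cells (CD45+ sort) and 15.4, 16.4, 22.5 and 24.4% of tumor CD8 T cells (CD45+ sort). At that depth they were 4.18, 3.83, 6.74 and 5.68% of splenic CD8 T cells (CD8+ sort), 10.9, 11.7, 17.8 and 20.5% of tumor CD8 T cells (CD8+ sort), 7.69, 10.1, 9.72 and 12.1% of tumor NK cells. At that depth they were 2.78, 12.5, 0 and 0% of splenic NK cells, 0.870, 0, 3.95 and 6.67% of splenic monocytes, 20.4, 20.2, 44.6 and 47.0% of tumor macrophages, 33.7, 34.5, 60.5 and 60.0% of tumor monocytes. Cells below that depth were left out, so these are shares of the deeper cells only. Left out were 25 of 49 cells in the WT anti-PD1 splenic NK pool, where 3 of 24 held 5 members, and 461 to 663 cells in each B-cell pool. Without thinning the shares were 1.59, 1.46, 1.88 and 1.24% of splenic B cells, 13.95, 8.51, 14.7 and 19.2% of splenic CD8 T cells (CD45+ sort), 29.7, 37.9, 48.2 and 51.1% of tumor CD8 T cells (CD45+ sort), 12.1, 9.51, 15.9 and 12.8% of splenic CD8 T cells (CD8+ sort). They were also 38.7, 41.4, 47.5 and 49.7% of tumor CD8 T cells (CD8+ sort), 29.8, 31.8, 35.7 and 39.6% of tumor NK cells, 1.19, 8.16, 13.6 and 5.56% of splenic NK cells, 55.5, 53.2, 79.8 and 74.0% of tumor macrophages. They were also 63.3, 62.9, 83.2 and 78.3% of tumor monocytes and 6.02, 2.97, 5.88 and 7.27% of splenic monocytes. Deeper cells show more members, so these shares can be compared only at equal depth.

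Each group is 1 library of pooled mice, so no difference between genotypes, treatments or tissues can be told apart from differences between pools. Genes with few UMIs have wide intervals, and doublets were not removed. How much free RNA in the droplets or mixed droplets add was not tested. Apoe was found in 17.6%, 19.8%, 17.7% and 18.1% of splenic B cells at 2000 UMIs, from median depths of 4228, 4162, 4456 and 4286 UMIs.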

Other observations

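Cells of the tumor CD45+ libraries that met no gate held the 10 members at 1351, 1332, 2174 and 2019 CPM in the order WT isotype, WT anti-PD1, KO isotype, KO anti-PD1, and those of the splenic CD45+ libraries at 458, 662, 686 and 841 CPM. Gbp2 stood at 288, 281, 557 and 516 CPM in the former and 37.4, 49.2, 49.2 and 51.0 CPM in the latter, and Ifi47 at 288, 301, 457 and 413 and 154, 243, 255 and 279.7 CPM. In splenic B cells, where no member passed 1.5-fold between genotypes under anti-PD1, 10 of 16 genes of the type I interferon list were lower in KO, with a median log2 ratio of -0.95, beside 208 of 9251 genes tested. Under isotype 2 of 14 were lower, with a median of -0.04, beside 245 of 9110.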
